A study of Mus musculus with 6 samples.

Results

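The B-type plexins, the class 4 semaphorins that bind them and the receptor tyrosine kinase Met were followed in cultured mouse Schwann cells (SCs), the glia that ensheathe peripheral axons. These are 10 genes, Plxnb1, Plxnb2, Plxnb3, Sema4a, Sema4b, Sema4c, Sema4d, Sema4f, Sema4g and Met, chosen by name among the 55401 genes of the count table, and all 10 passed the filter on low counts that left 22318 tested genes. The data are bulk RNA-seq of SCs from adult mouse dorsal root ganglia, with 3 cultures labeled WT and 3 labeled PB1 -/-, here Plxnb1-/-. In the mutant allele, a gene trap cassette that encodes a transmembrane domain joined to lacZ, with a neo gene, sits in the Plxnb1 locus of every cell, on a C57BL/6 background. All cultures were grown with forskolin and neuregulin, were depleted of fibroblasts with an antibody to Thy1 and had a stated purity of over 80% at passage 3 to 5. The labels name the control cultures WT, whereas the methods of the study also allow heterozygous littermates as controls.

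Plexins are single-pass receptors that read semaphorins on neighboring cells. The intracellular part of a B-type plexin holds a GTPase-activating domain for small Ras-family GTPases, and its C terminus binds the guanine nucleotide exchange factors PDZ-RhoGEF and LARG, so that a semaphorin can change the actin cytoskeleton and adhesion of the cell that meets it. Class 4 semaphorins are transmembrane proteins, and Sema4D can also be shed. Plexin-B1 can pair with Met or ErbB2, which are phosphorylated when Sema4D binds. In peripheral nerve, SCs meet axons, fibroblasts and each other, and contact with another cell steers their migration.

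The 3 plexin genes lie on different chromosomes, and the sequences just before their start sites are shown because the 3 genes differed in level and in their difference between genotypes. Coordinates are those of GRCm38, and the sequences are from RefSeq, read 5′ to 3′ on the strand of the gene. Each ends at the base before the first annotated exon, whether RefSeq or GENCODE places it. For Plxnb2, the more upstream of 2 RefSeq starts is shown. Capitals mark the letters ACAAAG or ACAATG on either strand (CTTTGT or CATTGT on the other), 6-base words of the kind that Sox proteins such as Sox10, a defining transcription factor of SCs, can bind. The stretches are chr9:109095186-109095388 on the plus strand for Plxnb1, chr15:89180789-89181038 on the minus strand for Plxnb2, and chrX:73756853-73757089 on the plus strand for Plxnb3.
Plxnb1: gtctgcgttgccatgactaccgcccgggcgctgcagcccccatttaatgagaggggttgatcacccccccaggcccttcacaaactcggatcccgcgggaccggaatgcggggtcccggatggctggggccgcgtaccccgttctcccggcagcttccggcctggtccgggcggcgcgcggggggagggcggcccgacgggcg
Plxnb2: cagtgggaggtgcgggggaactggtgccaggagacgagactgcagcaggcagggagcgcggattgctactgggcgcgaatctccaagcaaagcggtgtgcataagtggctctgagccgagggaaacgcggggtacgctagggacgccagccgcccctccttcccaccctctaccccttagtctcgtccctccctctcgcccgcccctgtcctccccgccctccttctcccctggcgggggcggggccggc
Plxnb3: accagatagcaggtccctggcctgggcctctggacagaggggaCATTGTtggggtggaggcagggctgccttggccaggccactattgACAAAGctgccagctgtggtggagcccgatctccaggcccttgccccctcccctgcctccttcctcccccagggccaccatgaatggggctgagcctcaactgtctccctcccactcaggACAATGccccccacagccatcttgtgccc
Over the 250 bases before the RefSeq start, the Plxnb1 window held 30 CpG dinucleotides, that of Plxnb2 held 20, and that of Plxnb3 held 3. The median over 32851 promoter windows of the same length was 6. The words marked in capitals occurred 3 times before Plxnb3 and 0 times before Plxnb1 and Plxnb2, and 25.2% of all windows held at least 1. Among all 18 RefSeq starts of the 10 genes, 4 held one, in Plxnb3, Sema4a, Sema4d and Sema4f. These matches are letters in a window and were not tested as binding sites.

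The libraries held between 59252048 and 77280964 counts, so that 3 counts, taken as the detection floor, were worth 0.0383 to 0.0513 CPM, a level that scales counts to the library size. The floor covers counting error only. Sox10 lay between 432 and 580 CPM in all 6 cultures, and none of the 10 SC markers was at 0. S100b, whose protein the study used to stain SCs, was low, between 7.09 and 8.22 CPM. Transcripts of fibroblast markers were also abundant. The summed level of 8 markers lay between 10863 and 14434 CPM, against 2623 to 3616 CPM for the SC markers. Thy1 itself lay between 384 and 652 CPM. Col1a1 had the highest level of the 8 fibroblast markers, 5695 to 7095 CPM in WT and 4906 to 5232 CPM in Plxnb1-/- cultures. The study reports, from this RNA-seq, lower expression of Col1a1, as a matrix gene, in Plxnb1-/- SCs. Whether the fibroblast marker sum measures fibroblast content alone was not tested. WT replicate 2 and Plxnb1-/- replicate 3 stood apart. WT replicate 2 had the lowest SC marker sum and the highest fibroblast marker sum of the 6. Plxnb1-/- replicate 3 had 11.6 CPM of Xist, which marks cells with an inactive X chromosome, against 218 to 260 CPM in the other cultures, and 4 Y-linked genes summed to 157 CPM there, to 5.16 and 7.13 CPM in Plxnb1-/- replicates 1 and 2, and to 0 in the 3 WT cultures. The SC marker sum was higher and the fibroblast marker sum lower in all 3 Plxnb1-/- cultures than in any WT culture. Estimates without the libraries that stood apart are given where they move a result. Where these libraries were the extremes of a gene in the direction of its estimate, that estimate had to shrink or reverse without them. In bulk RNA, fewer cells of a type and less RNA per cell cannot be told apart.

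The targeted gene, Plxnb1 (ENSMUSG00000053646), encodes Plexin-B1 and lies on chromosome 9 at 109095389-109119917. In order of replicate number, the WT cultures held 61.8, 45.4 and 96.4 CPM and the Plxnb1-/- cultures 13.1, 16.6 and 18.6 CPM, an order of replicates kept for the values below. The genotypes did not overlap, and the WT cultures were the more spread, with a coefficient of variation of 38.4% in WT and 17.1% in Plxnb1-/- SCs. The log2 fold change was -2.08 (SE 0.25, 95% interval -2.64 to -1.52), which left 23.7% of the WT mean, and it passed the call rule (edgeR adjusted p = 0.0449; a call needs an adjusted p below 0.05 with a log2 fold change beyond 0.25 in either direction). The call lay close to its threshold. Without WT replicate 1 the edgeR adjusted p rose to 0.0886, and without Plxnb1-/- replicate 1, 2 or 3 to 0.255, 0.268 and 0.125. The call held without WT replicate 2 or 3 (edgeR adjusted p = 0.0017 and 0.0337). The log2 fold change stayed between -2.30 and -1.74 whichever culture was left out. DESeq2 gave an adjusted p of 2.7e-06 with the same 6 cultures. The mutant cultures still held between 1026 and 1286 counts on Plxnb1. A count per gene does not tell exons before the cassette from those after it. The study reports, from its RNA-seq tracks, that exons after the cassette lost expression in Plxnb1-/- SCs. Of the Plxnb1 exons, 257 bases (2.68%) are overlapped by the antisense gene Gm7628, which had at most 0.833 CPM.

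**Figure D1:**
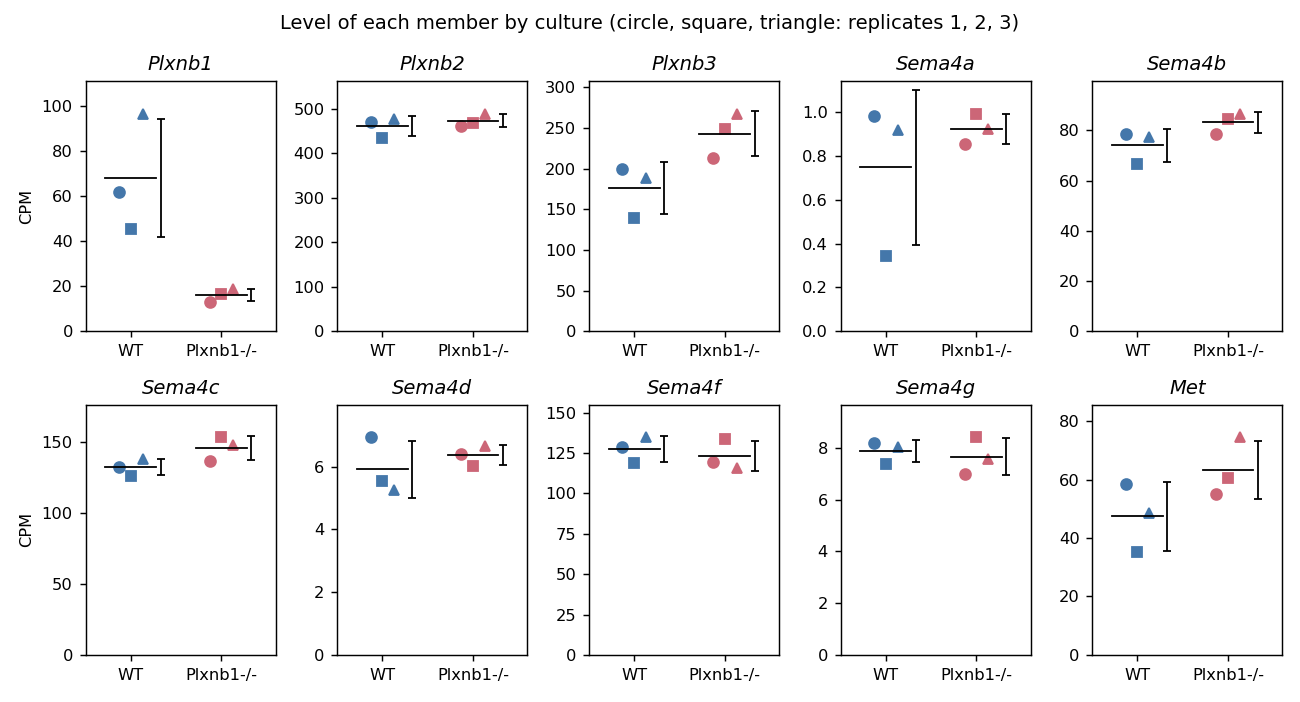
Level of each of the 10 genes in CPM (vertical axis, from 0, its own scale in each panel) in WT (blue) and Plxnb1-/- (red) cultures. Points are cultures (circle, square and triangle for replicates 1, 2 and 3), horizontal lines are means and error bars are SD with n = 3. The genotypes are separate for Plxnb1, Plxnb3 and, by 0.0997 CPM, Sema4b.

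Plxnb2 encodes Plexin-B2, the broadly expressed member of the family, and had the highest level per kb of exon of the 10 genes in every culture. It measured 472, 435 and 478 CPM in the WT cultures and 462, 469 and 489 CPM in the Plxnb1-/- cultures. The genotypes overlapped between 462 and 478 CPM, and the log2 fold change was 0.04 (SE 0.05, 95% interval -0.08 to 0.15; edgeR adjusted p = 0.784). On the linear scale, the interval runs from 0.949 to 1.11 times the WT level, the narrowest of the 10 genes. Without WT replicate 2 the estimate was -0.0013.

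Plxnb3, on the X chromosome at 73757090-73772514, encodes Plexin-B3, a receptor for Sema5A that is known from oligodendrocytes and other glia. It reached 200, 140 and 188 CPM in WT SCs and 213, 248 and 268 CPM in Plxnb1-/- SCs. The lowest Plxnb1-/- culture lay 12.7 CPM above the highest WT culture. The log2 fold change was 0.47 (SE 0.13, 95% interval 0.17 to 0.76), with an unadjusted p of 0.0056 and an adjusted p of 0.273 in edgeR, so it did not pass. DESeq2 called it on the same cultures (log2 fold change 0.46, adjusted p = 0.0141), as did edgeR with no filter on low counts (adjusted p = 0.0301). Among all cultures, WT replicate 2 was the lowest and Plxnb1-/- replicate 3 the highest, so the estimate had to be smaller without these libraries that stood apart. It was 0.33 without WT replicate 2, 0.39 without Plxnb1-/- replicate 3 and 0.25 without both (edgeR adjusted p = 0.331, 0.673 and 0.525). In DESeq2 the call was lost without Plxnb1-/- replicate 3 (adjusted p = 0.367) and held without WT replicate 2 (log2 fold change 0.32, adjusted p = 0.0181). Plxnb3 was highest in the culture with the lowest Xist and lowest in the culture with the lowest SC marker sum, and the part of either in the difference was not tested.

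Plxnb1 was thus the 1 member called by edgeR (1 of 10, against 0.0358% of all tested genes), and DESeq2 called 2 of 10 against 1.5% of all tested genes. Without the filter edgeR also called 2 of 10, against 0.949% of 31191 genes, and DESeq2 without Plxnb1-/- replicate 3 called 1 of 10, against 0.206%. The cultures of the genotypes did not overlap for 3 of the 10 members, against 19.7% of all tested genes. Plxnb1 was the 1 that was lower in Plxnb1-/- SCs (10.4% of all tested genes), and Plxnb3 and Sema4b were the 2 that were higher (9.3%). An unadjusted edgeR p below 0.05 was found for 5 of 10, the others being Met, Sema4c and Sema4b, against 13.7% of all tested genes. Plxnb1 is the targeted gene, so its place in these counts checks the labels. Over the 9 genes other than Plxnb1, 7 estimates were above 0, against 11491 of all 22318 tested genes. The median log2 fold change of the 9 genes was 0.14, and that of all tested genes was 0.0050. Without both libraries that stood apart, the edgeR estimates of Plxnb2 (-0.024) and Sema4a (-0.036) were below 0.

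**Figure D2:**
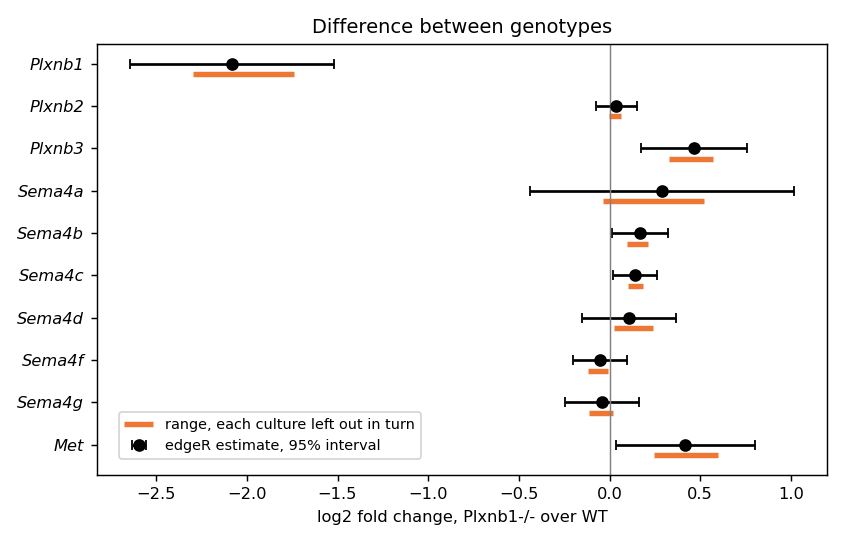
Log2 fold change of each gene between genotypes (horizontal axis, positive where Plxnb1-/- is higher). Black points with bars are edgeR estimates with 95% intervals from 3 against 3 cultures, and orange bars span the estimates obtained when each culture is left out in turn. The interval of Plxnb1 ends at -1.52, and those of Plxnb2, Sema4a, Sema4d, Sema4f and Sema4g include 0.

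Levels of different genes were compared per kb of merged exon (CPM per kb), with the lengths of the GENCODE annotation. The reads were aligned with a tool that does not span introns, and the genes hold from 12 (Sema4g) to 38 (Plxnb1) separate exon blocks. The effect of this on levels between genes was not tested. In WT SCs, Plexin-B2 transcripts stood at 59.8 ± 3.03 CPM per kb (SD, n = 3), those of Plxnb3 at 27.1 ± 4.90 and those of Plxnb1 at 7.07 ± 2.72. The order Plxnb2, Plxnb3, Plxnb1 held in all 6 cultures. In WT SCs, Plxnb1 made up 6.55%, 5.73% and 9.96% of the summed level of the 3 plexins in replicates 1, 2 and 3. In Plxnb1-/- SCs it made up 1.45%, 1.72% and 1.82%. The share of Plxnb3 was 31.3%, 26.1% and 28.7% in WT and 34.8%, 38.0% and 38.7% in Plxnb1-/- SCs, with no overlap, whereas the share of Plxnb2 overlapped (61.4% to 68.2% in WT, 59.5% to 63.7% in Plxnb1-/- SCs). The summed level of all 3 plexins was 94.0 ± 9.94 CPM per kb in WT and 100.4 ± 6.29 in Plxnb1-/- SCs and overlapped between genotypes. The sum of Plxnb2 and Plxnb3 alone was 91.9, 77.9 and 90.9 CPM per kb in WT and 92.6, 99.0 and 104.6 in Plxnb1-/- SCs, with no overlap but with a gap between genotypes smaller than the distance of WT replicate 2 from the other WT cultures. The ratio of Plxnb2 to Plxnb3 was 1.98 to 2.62 in WT and 1.54 to 1.83 in Plxnb1-/- SCs. Shares and sums are descriptions, with no test.

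**Figure D3:**
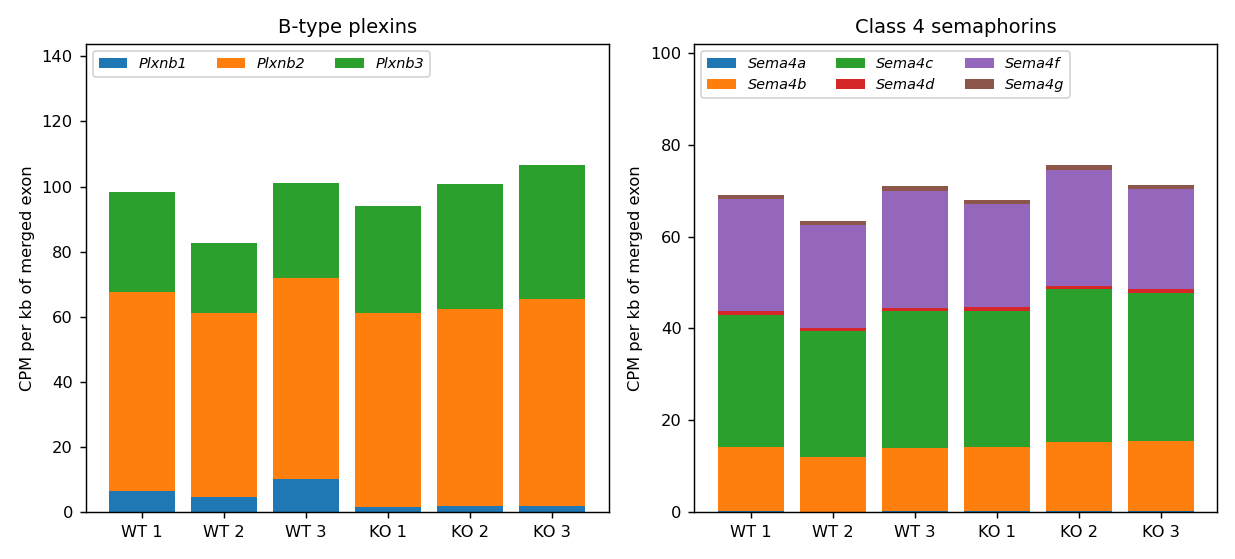
Summed level in CPM per kb of merged exon (vertical axis, from 0) of the 3 B-type plexins (left) and the 6 class 4 semaphorins (right) in each culture (KO stands for Plxnb1-/-), with each gene as a colored part of the bar. Plxnb2 is the largest part of the plexin bars in all 6 cultures, and Sema4c, Sema4f and Sema4b make up nearly all of the semaphorin bars.

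Among the ligands, Sema4C, which binds Plexin-B2, was the most abundant at the transcript level. Sema4c measured 132, 126 and 138 CPM in WT SCs and 136, 153 and 147 CPM in Plxnb1-/- SCs. Its log2 fold change was 0.14 (SE 0.05, 95% interval 0.02 to 0.26; edgeR adjusted p = 0.325), and Plxnb1-/- replicate 1 lay within the WT range. Without the 2 libraries that stood apart it was 0.10. An unstranded count could include reads of D430040D24Rik, which overlaps 334 bases of the Sema4c exons on the other strand and had between 6.44 and 8.68 CPM.

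Sema4f encodes a transmembrane semaphorin known from the nervous system. It measured 129, 119 and 135 CPM in WT SCs and 119, 134 and 116 CPM in Plxnb1-/- SCs, and the genotypes overlapped (log2 fold change -0.05, 95% interval -0.20 to 0.10; edgeR adjusted p = 0.767). The ratio of Sema4c to Sema4f per kb was 1.18, 1.22 and 1.18 in the WT cultures and 1.32, 1.32 and 1.46 in the Plxnb1-/- cultures. The ratio did not overlap between genotypes although neither gene passed the test, and it was picked after its values were seen.

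Sema4b, a broadly expressed relative, measured 78.5, 66.6 and 77.5 CPM in WT SCs and 78.6, 84.7 and 86.7 CPM in Plxnb1-/- SCs. The lowest mutant and the highest WT culture differed by 0.0997 CPM, and with upper-quartile scaling of the libraries they overlapped. The log2 fold change was 0.17 (SE 0.07, 95% interval 0.01 to 0.32; edgeR adjusted p = 0.339), and it was 0.07 without WT replicate 2 and Plxnb1-/- replicate 3.

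The other 3 semaphorins were low. Sema4d encodes the best known ligand of Plexin-B1, and its transcript measured 6.94, 5.55 and 5.25 CPM in WT SCs and 6.40, 6.03 and 6.68 CPM in Plxnb1-/- SCs, more than 100 times the detection floor of 0.0383 to 0.0513 CPM. Its interval of log2 fold change was -0.15 to 0.37, and its estimate of 0.11 became 0.04 without the 2 libraries that stood apart. Sema4g measured 7.38 to 8.17 CPM in WT SCs and 7.004 to 8.40 CPM in Plxnb1-/- SCs, with an interval of -0.24 to 0.16. Sema4a, a semaphorin best known from immune cells and retina, measured 0.984, 0.342 and 0.918 CPM in WT SCs and 0.856, 0.993 and 0.923 CPM in Plxnb1-/- SCs, from 20 to 72 counts per library. Its interval was the widest of the 10 genes, from -0.44 to 1.02, and its estimate of 0.29 became -0.04 without WT replicate 2, the culture with 20 counts. Each interval gives the range of differences that are compatible with these cultures.

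Per kb of exon, Sema4c made up 42.4% ± 0.829 of the summed class 4 semaphorin level in WT (SD, n = 3) and 44.3% ± 0.689 in Plxnb1-/- SCs. Sema4f made up 35.5% ± 0.342 and 32.5% ± 1.48, and Sema4b made up 19.4% ± 0.757 and 20.6% ± 0.844. Sema4d, Sema4g and Sema4a each made up less than 1.4% in every culture. In WT SCs the full order per kb was Plxnb2, Sema4c, Plxnb3, Sema4f, Sema4b, Plxnb1, Met, Sema4g, Sema4d and Sema4a. The neighbors Sema4c and Plxnb3, Plxnb3 and Sema4f, Plxnb1 and Met, and Sema4g and Sema4d overlapped between cultures and have no certain order. In Plxnb1-/- SCs Plxnb3 stood above Sema4c (37.4 against 31.7 CPM per kb, ranges overlapping) and Met stood above Plxnb1 (8.25 against 1.68, ranges apart). With the longest transcript as the length, Sema4f came before Plxnb3 in WT SCs, and the order in Plxnb1-/- SCs was the same as with merged exons. The length behind the deposited FPKM values equaled the whole gene span, introns included, within 1% in 99.5% of 13619 genes compared. They give Sema4c 65.8% of the semaphorin sum in WT and serve between genes only as an alternative.

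Met encodes the receptor for hepatocyte growth factor. It measured 58.5, 35.1 and 48.5 CPM in WT SCs and 55.1, 60.4 and 74.5 CPM in Plxnb1-/- SCs. WT replicate 2 was the lowest and Plxnb1-/- replicate 3 the highest, and the genotypes overlapped, with WT replicate 1 above Plxnb1-/- replicate 1. The log2 fold change was 0.42 (SE 0.17, 95% interval 0.03 to 0.80; edgeR adjusted p = 0.339 and DESeq2 adjusted p = 0.391). Leaving out these 2 libraries, the ones that stood apart, had to lower the estimate, which became 0.12 (edgeR adjusted p = 0.911).

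WT replicate 2 had the lowest level of all 6 cultures for Plxnb2, Plxnb3, Met, Sema4a, Sema4b and Sema4c, and the lowest of the WT cultures for Plxnb1, Sema4f and Sema4g. It also had the lowest SC marker sum, 2623 CPM against 3091 and 3131 CPM in the other WT cultures and 3184 to 3616 CPM in the Plxnb1-/- cultures. Its fibroblast marker sum was 14434 CPM, against 11971 and 12308 CPM in the other WT cultures and 10863 to 11349 CPM in the mutant cultures. Col1a1 had the highest level of the markers in that sum, and which cells expressed it was not tested. Of the 10 SC markers, 9 had estimates above 0 in Plxnb1-/- SCs (median log2 fold change 0.21), and of the 8 fibroblast markers, 7 had estimates below 0 (median -0.22). Of all 22318 tested genes, 11491 had estimates above 0 and 10827 below. With edgeR 0 of the SC and fibroblast markers passed (0.0358% of all tested genes). An unadjusted edgeR p below 0.05 was found for 7 SC markers and 4 fibroblast markers (13.7% of all tested genes). With DESeq2 0 SC markers and 1 fibroblast marker passed (1.5% of all tested genes). The summed level of 10 macrophage and leukocyte markers was 29.9 to 33.5 CPM in WT SCs and 34.9 to 38.8 CPM in Plxnb1-/- SCs, without overlap and with Cd3e at 0 in all cultures, and 8 of the 9 tested had estimates above 0 (median 0.25). That of 8 neuronal markers was 26.4 to 33.3 and 32.2 to 49.9 CPM, the highest being Plxnb1-/- replicate 3, and all 8 had estimates above 0 (median 0.29). With edgeR and DESeq2 0 of these passed. An unadjusted edgeR p below 0.05 was found for 3 macrophage and leukocyte markers and 1 neuronal marker (13.7% of all tested genes). Endothelial markers summed to 57.2 to 76.6 and 60.4 to 66.3 CPM and mural markers to 1055 to 1328 and 1032 to 1078 CPM, both overlapping. The part of cell makeup in the values of the 10 genes was not tested.

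**Figure D4:**
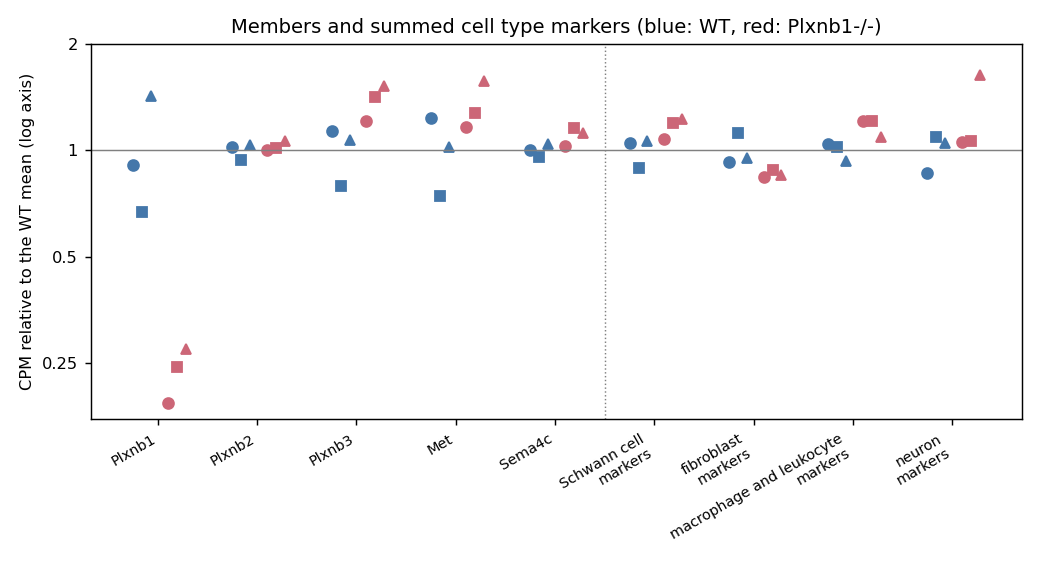
Level of 5 of the genes and summed level of 4 lists of cell type markers, each divided by its WT mean (vertical axis, log scale), in WT (blue) and Plxnb1-/- (red) cultures, with circle, square and triangle for replicates 1, 2 and 3. WT replicate 2 (blue square) is the lowest WT culture for the 5 genes and the SC markers and the highest for the fibroblast markers.

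Partners and alternative receptors were taken as a list of 10 genes, of which 9 were tested and Timd2 was at 0 in every culture, which allows up to 0.0383 to 0.0513 CPM. None was called by edgeR or DESeq2, 4 of the 9 had an unadjusted edgeR p below 0.05 (13.7% of all tested genes) and 4 did not overlap between genotypes (19.7% of all tested genes), with a median log2 fold change of -0.0031. Erbb2, the coreceptor that pairs with ErbB3 to receive neuregulin in SCs, measured 143 ± 17.1 CPM in WT SCs and 175 ± 13.3 CPM in Plxnb1-/- SCs (SD, n = 3), without overlap. Its log2 fold change was 0.29 (SE 0.09; edgeR adjusted p = 0.286) and 0.15 without the 2 libraries that stood apart. Mst1r, the Met relative also called Ron, was low at 0.560 ± 0.056 CPM in WT SCs and 0.274 ± 0.149 CPM in Plxnb1-/- SCs (log2 fold change -1.05, edgeR adjusted p = 0.321; -1.35 to -0.64 over the fits that leave out 1 culture). Its ligand Mst1 stood at 0.0912 ± 0.031 and 0.170 ± 0.044 CPM (log2 fold change 0.86, edgeR adjusted p = 0.419; 0.50 without the 2 libraries). Both lie near Plxnb1 on chromosome 9, Mst1r 1.19 Mb and Mst1 1.02 Mb away, where linkage to the mutant allele and loss of Plexin-B1 cannot be told apart.

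Hgf, the Met ligand, was low at 8.42 ± 1.51 CPM in WT SCs and 9.31 ± 0.649 CPM in Plxnb1-/- SCs (log2 fold change 0.14, from 0.0054 to 0.23 with each culture left out in turn). The neuropilins, coreceptors of class 3 semaphorins, gave log2 fold changes of -0.01 for Nrp1 and -0.14 for Nrp2, neither past the test (edgeR adjusted p = 0.917 and 0.339). Without the 2 libraries that stood apart the value of Nrp2 was -0.07. Plxnd1, a receptor of Sema3E and Sema4A, was abundant at 756 ± 98.6 CPM in WT SCs and 843 ± 23.3 CPM in Plxnb1-/- SCs (log2 fold change 0.16, edgeR adjusted p = 0.450), and its log2 fold change was 0.05 without the same libraries. Cd72, a receptor for Sema4D on immune cells, measured 19.1 CPM in both genotypes. Havcr2, which encodes the immune receptor Tim-3, gave a log2 fold change of -0.58 (edgeR adjusted p = 0.293) and of -0.31 without them.

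Downstream of the receptor, 30 GTPases, their regulators and effectors were all tested. With edgeR 0 passed and with DESeq2 2 did (1.5% of all tested genes), 9 had an unadjusted edgeR p below 0.05 (13.7% of all tested genes), and the median log2 fold change was -0.0099. The lowest estimates were those of Rnd1, a small GTPase that binds the Plexin-B1 intracellular domain (-0.81; DESeq2 adjusted p = 0.0059), the focal adhesion kinase relative Ptk2b (-0.49; DESeq2 adjusted p = 0.0239) and Rras2 (-0.27; DESeq2 adjusted p = 0.0808). In DESeq2, Rnd1 stayed called without WT replicate 2 (log2 fold change -0.84, adjusted p = 0.0374) and was not called without Plxnb1-/- replicate 3 (-0.66, adjusted p = 0.168). Ptk2b was not called without WT replicate 2 (-0.33, adjusted p = 0.176) or without Plxnb1-/- replicate 3 (-0.38, adjusted p = 0.420). The highest were Rnd3 (0.26), the kinase Pak1 (0.17) and Arhgef11, which encodes PDZ-RhoGEF (0.14), none called by either tool. Without the 2 libraries that stood apart, edgeR gave -0.68 for Rnd1, -0.21 for Ptk2b, -0.15 for Rras2, 0.15 for Rnd3, 0.07 for Pak1 and 0.06 for Arhgef11. The genes for RhoA (418 and 404 CPM in WT SCs and Plxnb1-/- SCs) and Rac1 (330 CPM in both) had log2 fold changes of -0.05 and -0.0017. Rhoa lies 0.789 Mb from Plxnb1 on chromosome 9, so linkage to the mutant allele and loss of Plexin-B1 cannot be told apart there either.

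None of the 7 proteases that process semaphorins or plexins was called by edgeR or DESeq2, with 3 at an unadjusted edgeR p below 0.05 (13.7% of all tested genes) and a median log2 fold change of -0.10. Their estimates ran from -0.35 for Pcsk6, -0.19 for Pcsk5 and -0.12 for Mmp14, a membrane metalloprotease that can shed Sema4D, to -0.02 for Pcsk7, 0.08 for Adam17 and 0.19 for Adam10. Without WT replicate 2 and Plxnb1-/- replicate 3 the lowest pair turned direction, Pcsk6 to 0.13 and Pcsk5 to 0.08, and Adam17 and Adam10 stood at 0.04 and 0.12. Of 22 genes of Met activation and signaling, edgeR called 0, DESeq2 called 1 (1.5% of all tested genes), and 6 had an unadjusted edgeR p below 0.05 (13.7% of all tested genes), with a median of 0.0042. The lowest estimates were those of Spint2 (-0.73), Hpn (-0.50) and St14 (-0.38), and the highest were those of Spint1 (0.98), Hgfac (0.43) and Ptprj (0.28). Spint1 and Spint2 encode inhibitors of the proteases that activate hepatocyte growth factor, and Hpn, St14 and Hgfac encode such proteases. All 5 lay below 0.8 CPM in both genotype means. With each culture left out in turn, the estimate ran from -0.96 to -0.39 for Spint2, -0.82 to -0.26 for Hpn, -0.60 to -0.09 for St14, 0.69 to 1.30 for Spint1 and -0.13 to 1.07 for Hgfac, which turned direction. Ptprj, a receptor phosphatase that can act on Met, measured 140 ± 7.18 CPM in WT SCs and 170 ± 13.9 CPM in Plxnb1-/- SCs (DESeq2 log2 fold change 0.28, adjusted p = 0.0162). It was not called by DESeq2 without WT replicate 2 (0.24, adjusted p = 0.0545) or Plxnb1-/- replicate 3 (0.22, adjusted p = 0.362).

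**Figure D5:**
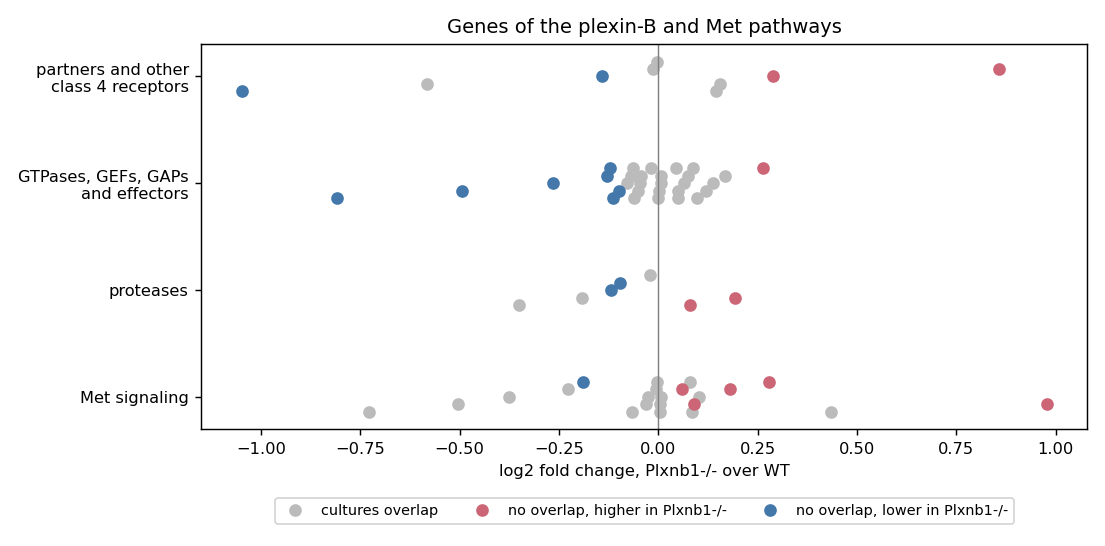
Log2 fold change between genotypes (horizontal axis, positive where Plxnb1-/- is higher) of every tested gene of 4 lists. Each point is a gene, gray where the cultures of the genotypes overlap, red or blue where they do not, and the vertical shift within a list only keeps points apart. Most genes lie near 0, and the outer points of the first and last list, Mst1r, Mst1, Spint1 and Spint2, are genes below 0.8 CPM.

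The genes whose pattern over the 6 cultures was nearest to that of a member were found by the root mean square difference of centered log2 CPM. For Plxnb3 they were B4galnt3, 1700028J19Rik and Gm44325 (0.034 to 0.050, against a median of 0.336 over all tested genes). Of these, 1700028J19Rik and Gm44325 were low, with at most 0.779 and 0.765 CPM. B4galnt3 measured 52.3, 38.9 and 51.8 CPM in WT SCs and 56.3, 68.6 and 71.4 CPM in Plxnb1-/- SCs, with the low WT replicate 2 that Plxnb3 also showed. For Plxnb1 the nearest were Gm2449, Gm5561 and Nmnat3 at 0.407 to 0.438 (median 1.08), so that no tested gene followed Plxnb1 as closely. Gm2449 measured 0.0383 to 0.375 CPM, its lowest culture at the detection floor, and Gm5561 measured 0.101 to 0.777 CPM, so counting error shapes their patterns. Gm2449 and Nmnat3 also lie on chromosome 9. The 6 points of each comparison share libraries and their makeup.

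Sequence shared between members was short. The longest run of bases shared by any annotated transcripts of a pair was 11 to 28 bases over the 45 pairs of members. Between the plexins it was 17 to 21 bases. All 50-base words in the longest transcript were also looked for in other genes, on both strands. For Plxnb1, 2.47% of them were found in Gm7628, the antisense gene that overlaps 257 bases of its exons. For Sema4b 1.72% and for Sema4f 0.173% recurred in other genes, and 0 did for the other 7 members.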

How the data were processed

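Poly(A) RNA-seq libraries of 3 WT and 3 Plxnb1-/- SC cultures were grouped by the genotype in their labels. Per the labels and the methods, the authors trimmed reads (Trim Galore 0.6.5), aligned them to mm10 with Bowtie2 2.4.1, which does not span introns, removed duplicates, and deposited unnormalized counts on exons from FeatureCounts; the strand setting is not given in the sources used here. The authors also deposited FPKM values, used only in alternatives, 2 limma fits and the shares of summed levels. Identifiers were matched to GENCODE symbols of GRCm38 (55141 of 55401), an older release than the authors used. Depth was 59252048 to 77280964 counts, and floors cover counting error only.

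Genes that reached 2 counts in 5 or more of the 6 libraries were tested with edgeR 4.0.16 under R 4.3.3 (TMM, quasi-likelihood test, genotype alone), with Benjamini-Hochberg adjustment over 22318 genes. Intervals are the log2 fold change ± SE times the t quantile. CPM values use TMM-scaled library sizes. DESeq2 1.42.0 and limma 3.58.1 on log2(FPKM + 0.1) or log2(FPKM + 0.01) were alternatives, as were other scalings, filters, a replicate block and cultures left out. Scripts were tested on simulated data. Replicates are separate samples per the labels, which do not say that they are separate animals, so the p-values may measure technical spread.

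Members and lists were chosen with earlier results of these data known. All members and partners are named, and in the other lists called genes and the 3 highest and 3 lowest log2 fold changes, apart from RhoA and Rac1, which were chosen after their values were seen. The 3 nearest genes were found for Plxnb1, Plxnb3 and Sema4c, and those of Sema4c are not reported here. Promoter windows are from RefSeq for GRCm38, with an entry for all 10 members.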

Additional observations from a re-analysis of the deposited data

How the results depend on the processing

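Plxnb1 kept its direction in all alternatives. Its call was lost with edgeR's filterByExpr (log2 fold change -2.08, adjusted p = 0.0715), without the other genes of its chromosome (-2.08, 0.112) and in limma on log2(FPKM + 0.1) (-1.86, 0.413) or log2(FPKM + 0.01) (-1.99, 0.434). These 4 settings called 0 members. DESeq2, edgeR without a low-count filter and DESeq2 without WT replicate 2 called 2, Plxnb1 and Plxnb3. The DESeq2 settings with a culture left out, the edgeR setting without both libraries and the shares from FPKM were added after seeing the data. Leaving out each culture in turn gave 0 to 1 members, a Plxnb1 log2 fold change of -2.30 to -1.74 and 4 to 25 genes called. Against 8 genes called in the main test, DESeq2 called 335, edgeR without a filter 296, the fit without chromosome 9 called 2, and limma 3 at either pseudocount. Without both WT replicate 2 and Plxnb1-/- replicate 3 edgeR called 23 (Plxnb1 at -2.41), and DESeq2 called 46 without the latter and 160 without the former. The cause of these shifts was not tested.

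Adding the replicate number as a block gave 5 called genes and a Plxnb1 log2 fold change of -2.03 (edgeR adjusted p = 0.0271). Deviations of same-numbered cultures correlated at -0.02, 0.0078 and 0.07 across genes, against -0.053 to 0.049 for pairs of unlike number. No pairing by number was seen, but such values cannot show whether same-numbered cultures were prepared together.

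Over the 9 other members, 161 of 171 values kept their direction and side of the threshold, 3 passed it (Plxnb3), and 7 reversed. Plxnb2 reversed to -0.0013 without WT replicate 2, -0.024 without both libraries and -0.0047 in DESeq2 without WT replicate 2. Sema4a reversed to -0.038, -0.036 and -0.042 in the same 3 settings, and Sema4g to 0.018 without Plxnb1-/- replicate 1. Leaving out each culture in turn gave -0.0013 to 0.063 for Plxnb2, -0.038 to 0.52 for Sema4a and -0.11 to 0.018 for Sema4g. With gene span as the length, as in the FPKM values, Plxnb3 made up 35.0% of the plexin sum in WT and 44.7% in Plxnb1-/- SCs.

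Depth limits the genes below 1 CPM, among them Sema4a, Mst1, Mst1r, Hgfac, Hpn, St14, Spint1, Spint2, Gm2449, Gm5561, 1700028J19Rik and Gm44325.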
